A study of Rattus norvegicus with 3 samples.

Results

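The regions described here are 2899 H3K4me3 peaks of low score that each overlap exactly 1 DLX3 peak, out of 25094 H3K4me3 peaks called in the enamel organ of adult wild-type rats. They were chosen from the deposited peak lists by 3 criteria: an H3K4me3 score under 100, a width under 4000 bp, and an overlap of at least 1 bp with exactly 1 of 69263 DLX3 peaks. They are called weak peaks with DLX3 below, where "weak" means only a low score in the H3K4me3 list. The enamel organ is the epithelial tissue that covers the forming tooth and secretes and matures enamel; it was taken from lower incisors, which grow throughout life in rats. Chromatin immunoprecipitation sequencing (ChIP-seq) gave 3 libraries of this 1 tissue: a library labelled DLX3, a library labelled H3K4me3 and an input made with no antibody. Their titles were followed here, while the antibody field of the first 2 reads anti-DLX4 and anti-H3K4me4, and the peak lists hold nothing that could settle which name is right. Each antibody has 1 library, the enamel organ as a whole was used so that its cell types cannot be told apart, and peaks are not replicates. Differences are therefore given without a test, and the 95% intervals cover counting error only. No read counts come with the peaks, and the depth behind a score is unknown.

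H3K4me3, the trimethylation of lysine 4 of histone H3, is laid down at the start sites of genes that are transcribed or poised for transcription, and strong regions of the mark usually coincide with promoters. Low levels of the mark are also found at weakly used promoters and at some active enhancers, which carry mainly the monomethylated form of the same lysine. DLX3 is a homeodomain transcription factor of the distal-less family, is expressed in ameloblasts, the enamel-forming cells, and is needed for normal enamel and hair; mutations in its gene cause tricho-dento-osseous syndrome in humans. Regions that carry a DLX3 peak and a low H3K4me3 score could thus be of either kind. The lists alone do not separate enhancers from weak promoters, and neither other histone marks nor gene positions in the build of the lists, rn5, were used here. No sequence is printed for the same reason.

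Of the 6643 H3K4me3 peaks with a score under 100, 12 were 4000 bp wide or more and were left out. Among the other 6631, 2899 (43.7%, 95% Wilson interval 42.5 to 44.9%) overlapped exactly 1 DLX3 peak, 3579 (54.0%) overlapped none, and 153 (2.31%) overlapped 2 or more. In the whole H3K4me3 list 57.8% of peaks overlapped exactly 1 DLX3 peak. This share was used to choose the regions and is given as a description. The median H3K4me3 score of the weak peaks with DLX3 was 66.4 (quartiles 56.5 and 79.4), against 64.7 (quartiles 55.8 and 77.7) for the weak peaks without DLX3, so within the range set by the rule the 2 groups had similar scores. The chosen peaks just under the limit had scores of 99.98, 99.92 and 99.79, and the peaks just outside it that met the other criteria had 100.11, 100.11 and 100.16. DLX3 scores at the 3 peaks just inside the limit were 461.0, 72.9 and 50.4, and those at the 3 just outside were 88.8, 94.2 and 109.3. The widest chosen peak measured 3932 bp, and the narrowest of 7 peaks kept out by the width limit alone measured 4041 bp.

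The 2899 regions lay on 2877 different DLX3 peaks, since 22 DLX3 peaks each spanned 2 of them. In 121 regions (4.17%, 95% Wilson interval 3.50 to 4.96%), the DLX3 peak also touched another H3K4me3 peak, against 1.74% of all H3K4me3 peaks with exactly 1 DLX3 peak. The highest-scoring neighbour on the shared DLX3 peak was strong, which here means an H3K4me3 score of 1000 or more, in 30 of these cases. It was of intermediate score, from 100 to under 1000, in 39, and weak in 52. Thus 30 of the 2899 weak peaks shared their DLX3 peak with a strong marked region. The matching share over all H3K4me3 peaks with exactly 1 DLX3 peak was not computed.

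The first comparison was of the shape of the overlap. At the weak peaks the DLX3 region was about as wide as the marked region, whereas at strong peaks it was a narrower region within the mark. The median ratio of DLX3 width to H3K4me3 width was 1.03 (95% binomial interval 1.01 to 1.04) at the 2899 weak peaks. It was 0.794 (0.782 to 0.806) at 3886 peaks of intermediate score and 0.688 (0.682 to 0.693) at 6775 strong peaks, all under 4000 bp and with exactly 1 DLX3 peak. Of the weak peaks, 734 (25.3%, 95% Wilson interval 23.8 to 26.9%) lay wholly inside their DLX3 peak, 679 (23.4%) held the DLX3 peak whole, and 1486 (51.3%) overlapped it in part. Over all 14506 H3K4me3 peaks with exactly 1 DLX3 peak, 8.25% lay wholly inside it. Among strong peaks 0.945% (0.741 to 1.20%) lay inside the DLX3 peak and 85.2% held it whole. Intermediate peaks stood between them, with 9.24% inside and 53.8% holding the DLX3 peak.

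At most weak peaks the overlap took in much of both regions. A median of 89.4% of the weak H3K4me3 peak and 86.0% of the DLX3 peak was shared, and in 80.3% of the regions at least 50% of each peak was shared, beside 80.4% at intermediate and 85.3% at strong peaks. An overlap under 100 bp was found in 27 regions (0.931%), against 0.386% at intermediate and 0.0738% at strong peaks. The median distance between the 2 midpoints was 160 bp (quartiles 66 and 338.5 bp), beside 159.5 bp at strong peaks, which are wider. The DLX3 midpoint lay on the side facing the nearest strong H3K4me3 peak in 49.0% of the 2894 regions whose midpoints differed (95% Wilson interval 47.2 to 50.9%), close to an even split.

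**Figure D1:**
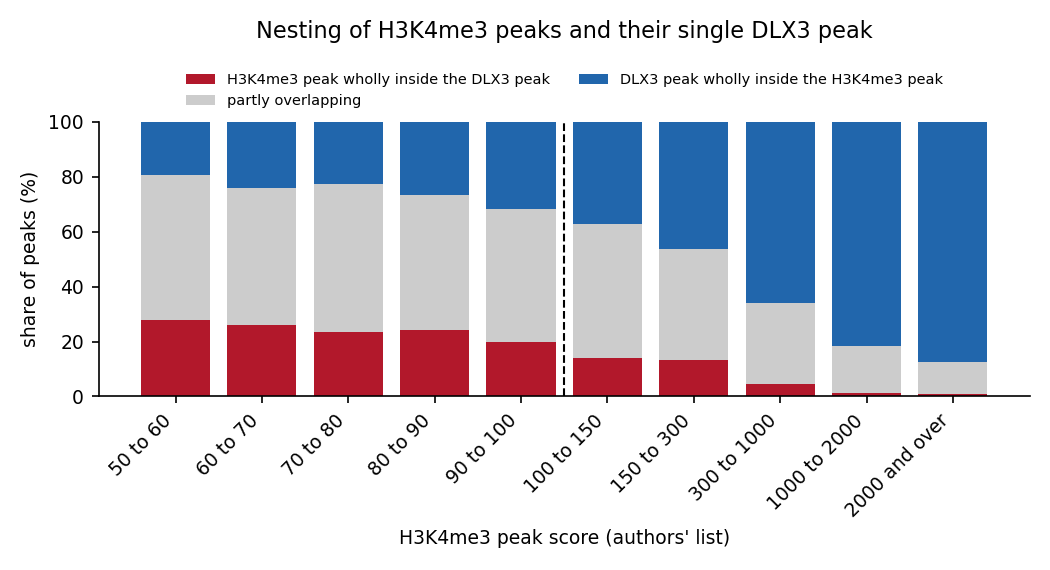
The bars show, for H3K4me3 peaks under 4000 bp with exactly 1 DLX3 peak in 10 classes of H3K4me3 score (horizontal axis), the share in percent (vertical axis) lying wholly inside the DLX3 peak, overlapping it in part or holding it whole; the dashed line marks the score limit of 100. The share inside the DLX3 peak goes from 27.9% in the lowest class to 0.736% in the highest, and the share holding the DLX3 peak from 19.5% to 87.5%.

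Weak H3K4me3 peaks are narrower than strong ones, with a median width of 1205 bp against 2365 bp, and a narrow peak fits more easily inside another. Peaks were therefore also compared at like width. Among peaks of 1046 to 1375 bp, 24.5% of 837 weak peaks lay inside their DLX3 peak (95% Wilson interval 21.7 to 27.5%), against 9.63% of 727 intermediate peaks (7.69 to 12.0%) and 0.358% of 279 strong peaks (0.0633 to 2.00%). In this same class the DLX3 peaks themselves had median widths of 1203, 1011 and 946 bp at weak, intermediate and strong H3K4me3 peaks. Among peaks of 802 to 1045 bp the shares inside were 24.3% of 625 weak peaks, 11.7% of 283 intermediate peaks and 0 of 64 strong peaks (95% Wilson interval up to 5.66%). Among the widest, 1376 to 3932 bp, they were 25.1%, 8.97% and 0.987%, but there the weak peaks were still narrower, with a median of 1721.5 bp against 1937 and 2404 bp. The larger share inside the DLX3 peak was thus also found at like H3K4me3 width, where the DLX3 peaks were wider at the weak sites. Over all H3K4me3 widths the order was the opposite. There the median DLX3 widths were 1210, 1252 and 1529 bp at weak, intermediate and strong peaks.

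The second comparison was of the DLX3 score, which the rule did not use. DLX3 peaks at weak H3K4me3 peaks scored above those outside the mark and below those at strong marked regions. Their median score was 129 (95% binomial interval 125 to 134; quartiles 78.1 and 237.4; range 50.01 to 2546). The 51686 DLX3 peaks that overlapped no H3K4me3 peak had a median of 83.1 (82.5 to 83.5), a difference of 45.9. The DLX3 peaks at strong H3K4me3 peaks had a median of 159 (156 to 163), a difference of -30.2 for weak against strong. Both orders of the medians held on each of the 21 chromosomes. Scores among the highest 10% of the DLX3 list, from 282.7 upward, were found at 576 of the weak peaks (19.9%, 95% Wilson interval 18.5 to 21.4%), at 21.8% of the strong peaks and at 6.27% of the DLX3 peaks off the mark. The share of high DLX3 scores at weak peaks was thus close to that at all strong peaks together. Among strong peaks this share was 12.1% at H3K4me3 scores of 1000 to under 2000 and 28.2% from 2000. At intermediate peaks with exactly 1 DLX3 peak it was 14.6% (13.5 to 15.7%), lower than at weak peaks. Scores in the lowest 25% of the DLX3 list, up to 64.49, were found at 15.1% of weak peaks, 8.09% of strong peaks and 29.3% of DLX3 peaks off the mark.

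The DLX3 score did not follow the H3K4me3 score in a straight line. In the classes of H3K4me3 score from 50 to under 90, the median DLX3 score lay between 129 and 132, and from 90 to under 100 it was 116 (95% binomial interval 103 to 130). It was lowest, at 106 (103 to 110), for H3K4me3 scores of 300 to under 1000, and highest, at 190.4 (183 to 196), for scores of 2000 and over. At the 2697 strong peaks with H3K4me3 scores of 1000 to under 2000 it was 123 (118 to 127), not above the 129 of all weak peaks. The higher median at strong peaks was thus found only for scores of 2000 and over. Taken as a whole, the intermediate peaks had a median DLX3 score of 109 (106 to 111), under that of the weak peaks. Across the 2899 weak peaks the rank correlation of the 2 scores was -0.000; it was -0.045 across the 3886 intermediate peaks and 0.343 across the 6775 strong peaks. The rule keeps the H3K4me3 scores of the weak peaks within a narrow range. Peaks of 1 list share a library, so these correlations describe the lists and carry no test.

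**Figure D2:**
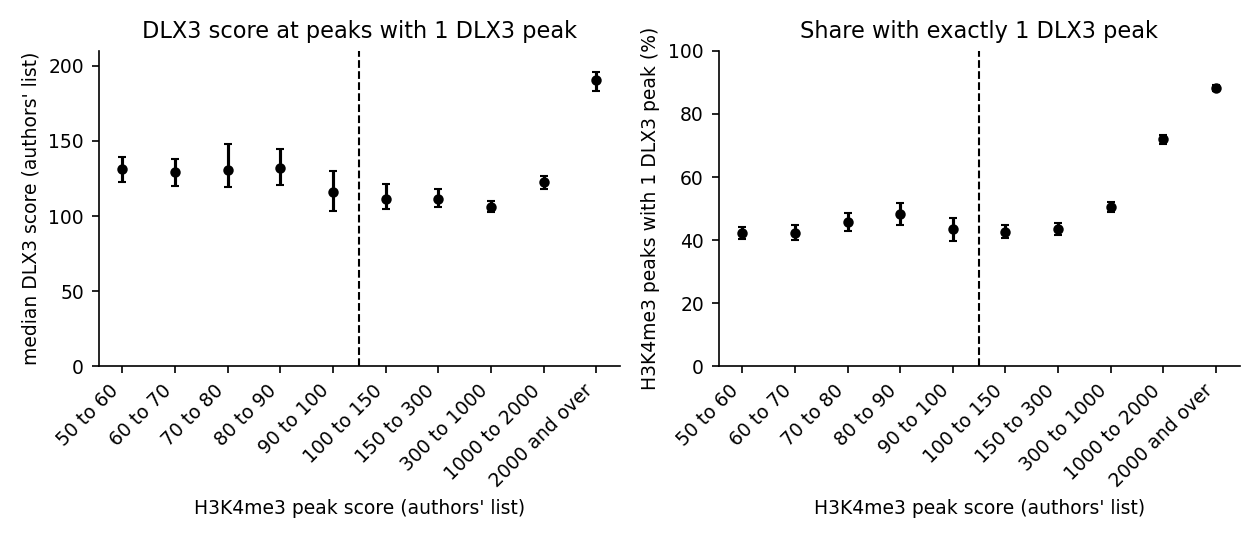
Left, the median DLX3 score (vertical axis, score of the authors' list) at H3K4me3 peaks under 4000 bp with exactly 1 DLX3 peak, in 10 classes of H3K4me3 score (horizontal axis), with 95% binomial intervals as bars; right, the share in percent of H3K4me3 peaks in each class that overlapped exactly 1 DLX3 peak, with 95% Wilson intervals. The dashed line marks the limit of 100. The DLX3 score is lowest at 106 in the class from 300 to 1000, and the share is between 42.2% and 48.2% in the 5 classes left of the line and 88.3% in the highest class.

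Wider DLX3 peaks had higher scores, with a rank correlation of 0.523 over the 2899 weak peaks, and DLX3 peaks at weak H3K4me3 peaks were wider than those off the mark, with medians of 1210 and 888 bp. Within each class of DLX3 width the weak peaks still stood above the DLX3 peaks off the mark. The difference was 6.55 for DLX3 peaks of 205 to 710 bp and 72.4 for those of 1477 bp or more. Against strong peaks the order turned with width. For DLX3 peaks under 1477 bp the weak peaks had the lower median, by 13.1, 19.9 and 11.6 in the 3 classes from narrow to wide; in the narrowest the interval, -29.1 to 0.04, included 0. With only the 50% of DLX3 peaks that scored highest, the difference over all widths was -7.87 (-19.5 to 1.81), which also includes 0. For DLX3 peaks of 1477 bp or more, the median was 221 (95% binomial interval 207 to 235) at 1069 weak peaks against 189 (183 to 196) at 3649 strong peaks. The lower DLX3 score at weak than at strong peaks thus did not hold among the widest DLX3 peaks, which were 36.9% of those at weak peaks and 53.9% of those at strong peaks.

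**Figure D3:**
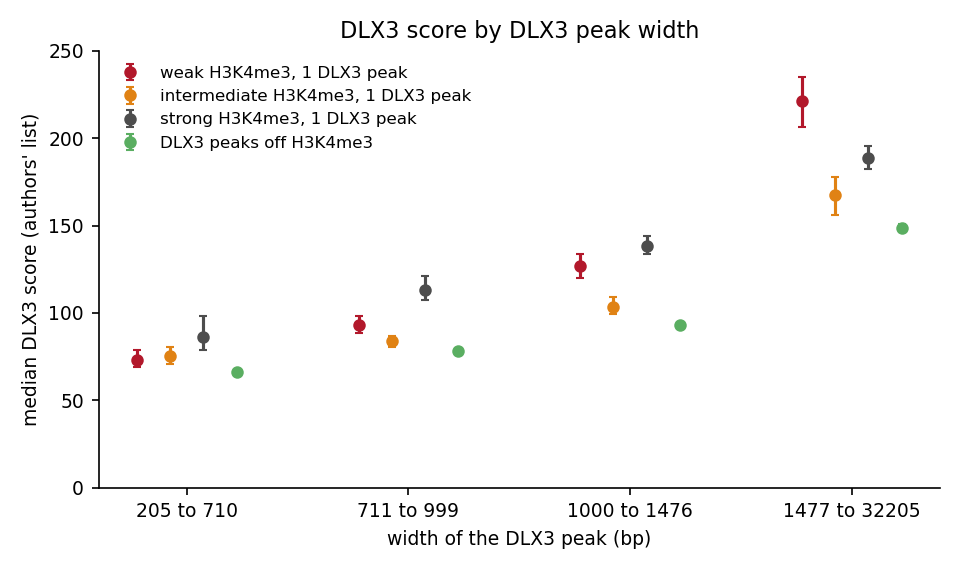
Median DLX3 score (vertical axis, score of the authors' list) in 4 classes of DLX3 peak width in bp (horizontal axis), cut at the quartiles of the DLX3 list, for weak, intermediate and strong H3K4me3 peaks with exactly 1 DLX3 peak and for DLX3 peaks off the mark; bars are 95% binomial intervals of the median. Weak peaks lie above the DLX3 peaks off the mark in each class and above strong peaks only in the widest one, at 221 against 189. Widths within that class need not be alike.

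Among the weak peaks themselves, nesting and DLX3 score went together. The 734 peaks that lay inside their DLX3 peak had a median DLX3 score of 192 (95% binomial interval 174 to 213) and a median DLX3 width of 1949.5 bp. The 679 that held their DLX3 peak had 95.6 (89.5 to 103) and 875 bp, although the H3K4me3 peaks of both groups had similar median widths, 1206 and 1257 bp. In the 25% of regions with the lowest DLX3 scores, up to 78.1, 10.5% lay inside the DLX3 peak, and in the 25% with the highest, from 237.5, 41.5% did. The median H3K4me3 scores of these 2 sets were 67.2 and 67.5, and their median DLX3 widths were 900 and 1979 bp. A wider DLX3 peak has more room to hold an H3K4me3 peak. Nesting and DLX3 score were not compared at like DLX3 width.

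The third comparison was of weak peaks with and without DLX3 in their place relative to strong H3K4me3 peaks, of which there were 9870. Weak peaks with DLX3 were more often at a middle distance, and those without DLX3 were more often either next to a strong peak or far from any. Measured from edge to edge, the median distance was 29976 bp (95% binomial interval 28321 to 32032 bp) with DLX3 and 41086 bp (38221 to 43769 bp) without. A strong peak lay within 1 kb of 135 of the 2899 peaks with DLX3 (4.66%, 95% Wilson interval 3.95 to 5.49%) and of 384 of the 3579 without (10.7%, 9.76 to 11.8%); over all H3K4me3 peaks the share was 5.5%. Distances over 1 kb and up to 10 kb were found for 20.6% of the peaks with DLX3 and 15.6% of those without. Distances over 10 kb and up to 100 kb were found for 55.1% and 43.9%. No strong peak lay within 100 kb of 19.6% with DLX3 (18.2 to 21.1%) and 29.8% without (28.3 to 31.3%), beside 25.4% of all H3K4me3 peaks. Because the curves cross, the shares within 10 kb over all widths were close, at 25.3% and 26.3%, a difference of -1.04 percentage points (95% Newcombe interval -3.17 to 1.11), beside 21.6% of all H3K4me3 peaks.

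**Figure D4:**
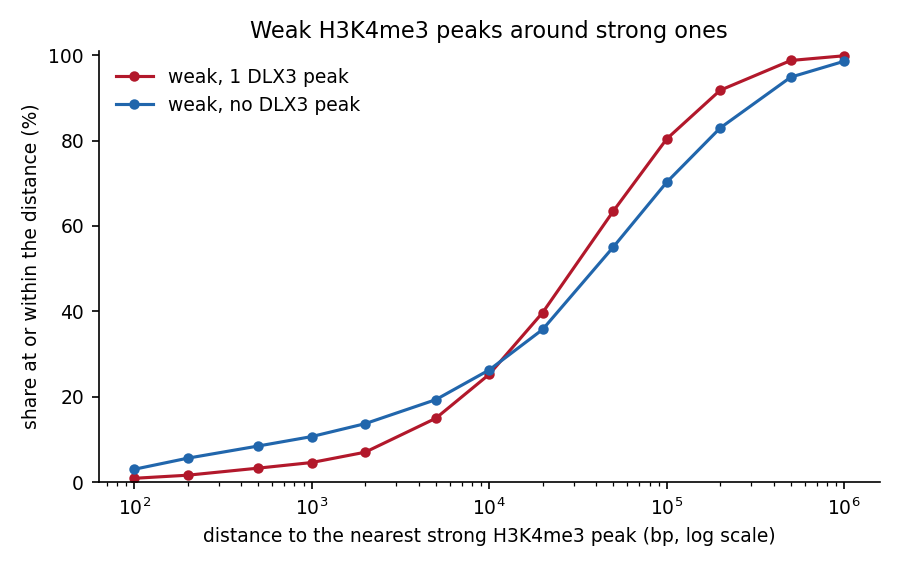
Cumulative share in percent (vertical axis) of weak H3K4me3 peaks with exactly 1 DLX3 peak and without DLX3 that have a strong H3K4me3 peak at or within a distance in bp (horizontal axis, log scale). The curve with DLX3 is the lower one at 1000 bp, 4.66% against 10.7%, meets the other near 10000 bp and is the higher one at 100000 bp, 80.4% against 70.2%.

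Weak peaks with DLX3 were wider than those without, with medians of 1205 bp (95% binomial interval 1186 to 1225 bp) and 924 bp (909 to 937 bp). A wider peak has more room for an overlap, and the share with exactly 1 DLX3 peak was 24.3% in the narrowest of 4 width classes of weak peaks and 62.4% in the widest. Width also went with the distance to strong peaks. Within the 4 width classes the medians with and without DLX3 were 52222 and 51808.5 bp, 37992 and 44758.5 bp, 30339 and 35315 bp, and 20770 and 22993 bp, from narrow to wide. The shorter median distance with DLX3 was therefore absent in the narrowest class and smaller in the others, where the intervals of the difference included 0. The lower share of weak peaks with DLX3 right beside a strong peak was found at every width. The share within 1 kb was 1.99% with DLX3 against 12.6% without in the narrowest class and 7.54% against 13.9% in the widest. It was the lower one with DLX3 in each width class and on each of the 21 chromosomes. The share without a strong peak within 100 kb was lower with DLX3 on 20 of the 21 chromosomes. The median distance was shorter with DLX3 on 17, and not on chromosomes 3, 9, 19 and 20. At like width the shares within 10 kb differed in the 2 narrower classes, with 16.1% against 25.2% (difference -9.03 percentage points, 95% Newcombe interval -13.1 to -4.48) and 18.6% against 24.1% (-5.56, interval -9.50 to -1.46), with DLX3 and without. When H3K4me3 peaks within 1 kb of each other were joined, the shares within 10 kb became 20.96% with DLX3 and 16.9% without, a difference of 4.09 percentage points. A joined region takes its highest score, so joining removes by construction every weak peak within 1 kb of a strong peak. The shares after joining therefore cover only distances over 1 kb and up to 10 kb.

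**Figure D5:**
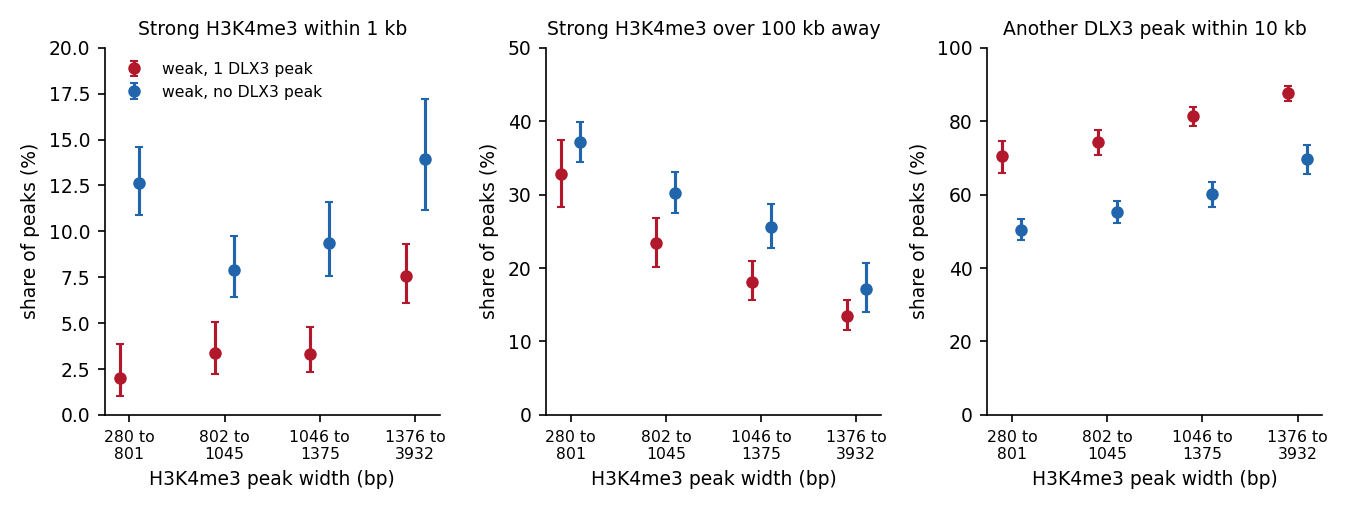
Shares in percent (vertical axes) of weak H3K4me3 peaks with exactly 1 DLX3 peak and without DLX3, in 4 classes of H3K4me3 peak width in bp (horizontal axes), that have a strong H3K4me3 peak within 1 kb, have none within 100 kb, or have another DLX3 peak within 10 kb; bars are 95% Wilson intervals. In each class the peaks with DLX3 are lower in the first 2 panels and higher in the last, where they go from 70.5% to 87.7% against 50.5% to 69.8%; in the middle panel the intervals overlap in the narrowest and widest classes.

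The DLX3 score did not rise or fall steadily with the distance to a strong peak. For weak peaks within 1 kb, from there to 10 kb, to 100 kb and beyond, the median DLX3 scores were 119, 127, 136 and 114, and the rank correlation of distance and score was -0.050 over the 2899 regions. The DLX3 peaks of the most remote class were the narrowest: their median width was 997 bp, and that of the nearest class was 1369 bp. The nearest strong H3K4me3 peak itself overlapped DLX3 for 92.4% of the weak peaks with DLX3 (95% Wilson interval 91.4 to 93.4%) and for 88.6% of those without (87.5 to 89.6%), beside 88.2% of all H3K4me3 peaks and 89.7% of intermediate peaks.

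The fourth comparison was of the DLX3 sites around the weak peaks. Weak peaks with DLX3 lay in surroundings with more DLX3 peaks, beyond the 1 they overlap. Another DLX3 peak lay within 10 kb of 80.6% of them (95% Wilson interval 79.2 to 82.0%) and of 56.7% of the weak peaks without DLX3 (55.1 to 58.3%), a difference of 23.9 percentage points, beside 60.5% of all H3K4me3 peaks. The median distance to the nearest DLX3 peak that did not overlap was 2941 bp (2723 to 3186 bp) with DLX3 and 7188 bp (6776 to 7750 bp) without. The share was higher with DLX3 on each of the 21 chromosomes, and by 17.9 to 21.4 percentage points within the 4 width classes. Those neighbouring DLX3 peaks had similar median scores, 98.9 and 93.4. Strong H3K4me3 peaks with 1 DLX3 peak had fewer DLX3 neighbours, with another within 10 kb for 53.1% (51.9 to 54.3%), and intermediate peaks had one for 68.2% (66.7 to 69.6%). At a width of 1046 to 1375 bp the shares for weak, intermediate and strong peaks were 81.5%, 61.6% and 41.9%.

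The DLX3 peak at a weak H3K4me3 peak was the highest-scoring one within 50 kb of its midpoint in 644 of 2877 cases (22.4%, 95% Wilson interval 20.9 to 23.9%). The share was 15.9% for DLX3 peaks off the mark and 43.8% for those at strong H3K4me3 peaks. The median number of other DLX3 peaks in that window was 8 for weak peaks, 7 off the mark and 4 at strong peaks, and with more neighbours a peak is less often the highest. By this count the surroundings were denser than at strong peaks and close to those of DLX3 peaks off the mark. The shares with 10 or more neighbours were 40.2% at weak peaks, 39.0% off the mark and 16.7% at strong peaks. With 1 to 4 neighbours, the DLX3 peak was the highest in 34.6% of cases at weak peaks, 33.5% at intermediate peaks, 53.2% at strong peaks and 25.8% off the mark. With 5 to 9 neighbours the shares were 16.9%, 16.7%, 28.9% and 9.25% in that order. With 10 or more they were 14.0%, 13.5%, 19.7% and 4.10%. At a like number of neighbours, weak peaks were thus close to intermediate peaks.

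The 5 weak peaks with the highest DLX3 scores, which the rule limits to low H3K4me3 scores, are given as a description. Positions are in rn5 with starts counted from 1, and the highest H3K4me3 scores were often recorded as exactly 3100. On chromosome 2, a marked region of 1645 bp with a score of 76.1 (chr2:223458723-223460367) touched a DLX3 peak of 6355 bp with a score of 2546, by 80 bp only, 7781 bp from a strong peak. On chromosome 12, a region of 2210 bp with an H3K4me3 score of 52.6 (chr12:9720915-9723124) shared 2122 bp with a DLX3 peak of 2175 bp and score 2020, and the nearest strong H3K4me3 peak was 229534 bp away. The 2 regions at this site covered almost the same stretch. The other 3 lay wholly inside wide DLX3 peaks. On chromosome 1 (chr1:228081873-228083977) the DLX3 score was 1739 and the H3K4me3 score 77.8, and the same DLX3 peak of 4361 bp also touched another H3K4me3 peak. On chromosome 5 (chr5:159848820-159850812) the scores were 1631 and 70.6 within a DLX3 peak of 6441 bp, 41875 bp from a strong peak. On chromosome 10 (chr10:103945950-103946888), a marked region of 939 bp and score 51.4 lay in a DLX3 peak of 12842 bp and score 1453.

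The most remote weak peaks were narrow regions in both lists. The 5 farthest from any strong peak lay on chromosome 18 (chr18:34512452-34513266, 1423407 bp away), chromosome 3 (chr3:46898744-46899420, 1290657 bp), chromosome 5 (chr5:89446816-89447703, 1192582 bp), chromosome 8 (chr8:2638250-2639057, 1140327 bp) and chromosome 9 (chr9:48252103-48252861, 1051959 bp). Their H3K4me3 widths were 677 to 888 bp and their DLX3 widths 368 to 791 bp. Their DLX3 scores were 52.8 to 92.4, while the 569 weak peaks more than 100 kb from a strong peak had a median of 114 and a highest of 2020. The last 4 held the DLX3 peak whole. Across all 5, the nearest other DLX3 peak was 172676 to 1291222 bp away.

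The 5 nearest to a strong peak were separated from it by 4 to 18 bp. They lay on chromosome 6 (chr6:111586292-111586850 and chr6:49793447-49794749), chromosome 7 (chr7:11988127-11990372), chromosome 8 (chr8:70407482-70409453) and chromosome 1 (chr1:177586296-177587635). DLX3 scores there were 86.6, 384, 503, 50.2 and 85.5 in that order. Over the 135 weak peaks within 1 kb of a strong peak, DLX3 scores ranged from 50.2 to 1094, with a median of 119 (95% binomial interval 98.8 to 147). Among the 3 widest weak peaks, that on chromosome 8 (chr8:47024994-47028732) had a DLX3 score of 1002. Those on chromosome 10 (chr10:109041442-109045373) and chromosome 5 (chr5:163366591-163370503) had 176 and 181. The 3 narrowest, of 350, 367 and 391 bp, lay on chromosome 16 (chr16:36184530-36184879), chromosome 15 (chr15:89765815-89766181) and chromosome 9 (chr9:27356229-27356619), with DLX3 scores of 123, 59.4 and 83.7.

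Weak peaks with DLX3 were spread over all 21 chromosomes in the lists. Their share among weak peaks was between 37.0% on chromosome 8 (95% Wilson interval 32.1 to 42.1%) and 53.7% on chromosome 19 (46.8 to 60.4%) on the autosomes. It was 22.9% on X (16.0 to 31.7%), where 25 of 109 weak peaks had exactly 1 DLX3 peak. The share over all H3K4me3 peaks on X was 48.9%, also below the autosomes, which had 56.0% or more, so the low share on X is not limited to weak peaks. The median DLX3 score of the 25 on X was 96.5 (75.8 to 168.9), an interval that includes the 129 of the autosomes. The 3 windows of 1 Mb with the most such peaks lay on chromosome 20 (chr20:9000001-10000000), with 13, chromosome 10 (chr10:105000001-106000000), with 12, and chromosome 9 (chr9:63000001-64000000), with 11. These windows also held 126, 129 and 102 DLX3 peaks and 9, 15 and 4 strong H3K4me3 peaks. Median DLX3 scores at their weak peaks were 121, 239.7 and 120.7. Of 1170 windows with any such peak, 475 held 1 and 158 held 5 or more.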

How the data were processed

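The scores are the authors' deposited values, 1 per peak, in 1 list for the DLX3 library and 1 for the H3K4me3 library; no list of the input was analysed here. The tools named in the submitters' processing notes are MACS 1.4.2, HOMER and Bowtie 1.1.2, and the genome build is rn5; the tools' roles, cutoffs and any use of the input as control are not given in the sources used here. Scores were compared only within a list. Neither list holds overlapping peaks. Overlaps, edge-to-edge distances and nesting were computed with pandas 2.3.3 and numpy 2.4.6 in Python 3.11.15, tested on simulated lists, and the overlap counts of all 25094 H3K4me3 peaks equal those of bedtools 2.31.1. Intervals at 95% are Wilson's for shares, Newcombe's for differences of shares and binomial (order statistic) ones for medians, from scipy 1.17.1 and statsmodels 0.14.6. Intervals of differences of medians join the outer bounds of both, so they are wider than a 95% interval of the difference. One that includes 0 therefore does not show that the medians are alike. The members and comparisons were chosen with earlier results of these data known. Positions were named by rule: the 5 highest DLX3 scores, the 5 farthest from and nearest to a strong peak, the 3 widest and narrowest, the 3 on each side of the score limit, and the 3 fullest windows. Alternatives changed the limits, overlap rule, DLX3 list, joining, width classes and chromosome X.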

Additional observations from a re-analysis of the deposited data

How the results depend on the processing

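Under 79 alternatives to the 9 results, 47 values stayed within the interval of the value reported, 30 moved out of it, and 2 turned the sign of a difference whose interval excluded 0. The share of weak peaks with exactly 1 DLX3 peak was 40.3% when the DLX3 midpoint had to lie inside, 30.3% with only the 50% of DLX3 peaks that scored highest and 45.7% after joining H3K4me3 peaks within 1 kb; the median width difference from weak peaks without DLX3 was 330 bp with those 50%. The difference in median distance to strong peaks (with minus without DLX3) was -16808.5 bp after joining, -5916 bp with strong peaks from 500, and -74581 bp from 3100. In the 4 width classes from narrow to wide it was 413.5, -6766.5, -4976 and -2223 bp, and each interval included 0. Its sign turned in the narrowest, where the interval was -17059 to 17876 bp. The difference in the share within 10 kb, which was -1.04 percentage points with an interval that included 0, was 4.09 after joining, 0.384 with a score limit of 150, 0.280 with strong peaks from 3100, and -9.03 and -5.56 in the 2 narrowest classes. The DLX3 score exceeded that off the mark by 6.55, 14.9, 33.6 and 72.4 in the 4 DLX3 width classes. Against strong peaks it differed by -13.1, -19.9, -11.6 and 32.4 in these classes, turning sign in the widest, and by -7.87 with those 50% of DLX3 peaks. The difference in other DLX3 peaks within 10 kb was 20.4 percentage points with midpoints inside, 28.8 after joining, and 19.99, 19.1, 21.4 and 17.9 in the H3K4me3 width classes. DLX3 peaks touching another H3K4me3 peak were 0% with midpoints inside, by construction, and 0.709% after joining. The share inside the DLX3 peak was 22.7% with a score limit of 150 and 29.0% in the narrowest width class. The width classes for nesting and for other DLX3 peaks were chosen after seeing the data. Joining also removes, by construction, every weak peak within 1 kb of a strong peak. Beyond these effects of construction, the cause of these movements was not tested. Depth is unknown, so a weak peak without DLX3 may have lacked reads for a call. No paired analysis was possible because each antibody has a single library, which also leaves none to omit in turn.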

Other observations

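The 153 weak H3K4me3 peaks with 2 or more DLX3 peaks, which the rule leaves out, held 2 in 151 cases and 3 in 2. They were wider, with a median of 1795 bp (95% binomial interval 1655 to 2015 bp), and lay a median of 21698 bp from a strong H3K4me3 peak. The higher DLX3 score at each had a median of 180.4 and the lowest a median of 78.2. Beyond the DLX3 peaks they overlapped, 88.2% of them (95% Wilson interval 82.2 to 92.4%) had another within 10 kb.

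Weak peaks also differed in their nearest H3K4me3 neighbour of any score. It lay within 1 kb for 13.8% of those with exactly 1 DLX3 peak (95% Wilson interval 12.6 to 15.1%) and for 20.7% of those without DLX3 (19.4 to 22.0%), beside 15.97% of all H3K4me3 peaks. The median score of that neighbour was 293 (95% binomial interval 256 to 348) and 438 (380 to 490). A DLX3 peak more than 100 kb away was the nearest not overlapping one for 1.17% and 6.96%, beside 4.63% of all H3K4me3 peaks.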
